A study of Mus musculus with 24 samples.

Results

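The secondary (specific) and tertiary (gelatinase) granule genes of neutrophils described here are Ltf, Lcn2, Camp, Ngp, Cd177, Chil3, Hp, Mmp8, Mmp9 and Mmp25. The rule was a list of names with no threshold on a measured value, but the list was drawn up with earlier results of these data known. All 10 were found among the 54752 genes of the deposited table and all 10 were among the 12373 genes tested. RNA was measured in bone marrow of 24 male C57BL/6 mice, 6 per group, with 1 library per mouse. GC-WT and FL-WT mice were wild-type, and GC-KO and FL-KO mice carried a knockout of Nrf2 in all tissues, without a Cre driver. FL mice lived on the International Space Station for 31 days in individual cages and were sampled 2 days after landing, while GC mice were kept on the ground in Japan under conditions that mimicked the flight. The flight mice were 8 weeks old when shipped to the launch site, 3 weeks before launch, and the age of the ground mice is not given in the sources used here. The cells came from the right pelvis and tibia, were neither sorted nor depleted, and were cryopreserved before RNA extraction. Landing, transport and the site of sampling came with flight, so their effects and that of space cannot be told apart.

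Neutrophils load their granules in the order in which they mature. Promyelocytes fill primary granules with myeloperoxidase and serine proteases, myelocytes and metamyelocytes then fill secondary granules with lactoferrin, lipocalin and cathelicidins, and band cells fill tertiary granules with gelatinase. The contents are set mainly by which genes are transcribed at each stage, and the transcription factor C/EBPε is known to be required for the secondary and tertiary classes. Nrf2, encoded by Nfe2l2, binds antioxidant response elements and drives genes of detoxification and redox control.

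The members lie on 6 chromosomes of GRCm38, and 3 of them are close together on chromosome 9. Camp (ENSMUSG00000038357.10, chr9:109847379-109849617, minus strand), Ngp (ENSMUSG00000032484.8, chr9:110419747-110423012, plus strand) and Ltf (ENSMUSG00000032496.7, chr9:111019271-111042767, plus strand) fall within 1.2 Mb, and Mmp8 (ENSMUSG00000005800.3, chr9:7558456-7568485, plus strand) is on the same chromosome. Lcn2 (ENSMUSG00000026822.14, chr2:32384633-32388252, minus strand) and Mmp9 (ENSMUSG00000017737.2, chr2:164940780-164955850, plus strand) are on chromosome 2. Chil3 (ENSMUSG00000040809.10) is at chr3:106147554-106167564 on the minus strand, and Cd177 (ENSMUSG00000052212.6) is at chr7:24743983-24760311 on the minus strand. Hp (ENSMUSG00000031722.10) is at chr8:109575128-109579172 and Mmp25 (ENSMUSG00000023903.8) at chr17:23628311-23645277, both on the minus strand. All 10 are annotated as protein-coding. The only genes annotated across a member were 2 processed pseudogenes on the other strand of Mmp25, both at 0 TPM in every library. Chil3 has a near-identical neighbour, Chil4, which was listed at 0 to 0.01 TPM, so almost no signal was assigned to it.

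Promoter sequences of 8 of the 10 members were found in RefSeq (GRCm38.p6; 250 bases before to 50 bases after the start), all but those of Hp and Mmp9. They are shown for the 3 neighbours on chromosome 9, of which Ltf and Ngp fell in Nrf2-KO mice as deposited and Camp did not, and for Mmp25, which moved closely with Ltf. Only bases before the start in both RefSeq and GENCODE are printed. The printed stretches are chr9:111019042-111019270 for Ltf, chr9:109849618-109849706 for Camp, chr9:110419558-110419746 for Ngp and chr17:23645278-23645519 for Mmp25, each on the strand of its gene. Capitals mark matches to the C/EBP motif TTNNGNAA or to AGGAAG, the core bound by PU.1 and other ETS factors, on either strand.
Ltf: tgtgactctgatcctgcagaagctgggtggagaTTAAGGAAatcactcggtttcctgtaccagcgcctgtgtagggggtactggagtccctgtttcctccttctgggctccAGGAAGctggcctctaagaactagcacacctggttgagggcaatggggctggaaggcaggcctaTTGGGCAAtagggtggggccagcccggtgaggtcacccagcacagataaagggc
Camp: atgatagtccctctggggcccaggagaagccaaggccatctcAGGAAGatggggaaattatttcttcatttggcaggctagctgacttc
Ngp: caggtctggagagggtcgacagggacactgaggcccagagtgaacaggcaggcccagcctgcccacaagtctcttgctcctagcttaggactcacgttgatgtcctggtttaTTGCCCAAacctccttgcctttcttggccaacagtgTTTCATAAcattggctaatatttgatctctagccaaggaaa
Mmp25: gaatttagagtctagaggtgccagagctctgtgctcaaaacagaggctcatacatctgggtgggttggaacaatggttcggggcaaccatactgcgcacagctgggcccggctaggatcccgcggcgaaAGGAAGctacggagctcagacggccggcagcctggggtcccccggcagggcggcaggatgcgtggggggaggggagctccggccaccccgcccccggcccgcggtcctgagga

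Over the full windows of 300 bases, the C/EBP motif was matched in 6 of the 8 promoters and AGGAAG in 6 of the 8. Among 32851 mouse promoters of the same length, 40.7% held the C/EBP motif and 35.4% held AGGAAG. Ltf had 2 matches to the C/EBP motif and Ngp had 3, while Camp and Mmp25 had none and had 2 matches to AGGAAG each. The core of the antioxidant response element, TGACNNNGC, was matched in none of the 8 windows and in 12.4% of all promoters. None of these matches is evidence of binding, and their absence in a window says nothing of sites elsewhere.

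The knockout was seen in every mouse. Nfe2l2 lay between 11.4 and 27.3 TPM (transcript abundance corrected for length, as a share of a library) in the 12 WT mice and between 2.22 and 7.18 TPM in the 12 Nrf2-KO mice. Of all TPM in a library, 35.4% to 59.6% came from 5 small RNAs, Rmrp, Rpph1, Rn7sk, Rn7s2 and Rn7s1, and GC-KO mice had the lowest shares (35.4% to 48.4%). Read counts were not used here, so the depth of a library and the counting error of a value are unknown. The test was limma's, run on log2(TPM + 1), and its p-values were adjusted over all genes tested. A gene was taken to have changed at an adjusted p under 0.1, and called a differentially expressed gene (DEG) if it also changed at least 2-fold, on a scale that understates the change of genes at a few TPM.

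The median of all tested genes was below 0 in each comparison. The median log2 fold change of all genes was -0.22 in GC-KO vs. GC-WT, -0.25 in FL-KO vs. FL-WT, -0.24 in FL-WT vs. GC-WT and -0.29 for FL-KO vs. GC-KO. Genes that passed the test were lower in 5306 and higher in 387 cases in GC-KO vs. GC-WT, and lower in 5844 and higher in 236 in FL-KO vs. FL-WT. After median-of-ratios scaling, which sets the typical gene equal between libraries, these splits were 3446 to 3687 and 3857 to 4359. In FL-WT vs. GC-WT the split went from 4821 lower and 123 higher to 1970 and 2154, and in FL-KO vs. GC-KO from 6565 and 37 to 2668 and 2236. Across 10419 genes, the log2 fold change also fell with GC content (Spearman's rho -0.447 in GC-KO vs. GC-WT and -0.537 for FL-KO vs. FL-WT, genes not being independent replicates). The longest transcripts of the members had a GC content of 43.4% (Mmp8) to 56.2% (Hp), against a median of 49.2% over these genes. They were 4528 bases long for Mmp25, 3175 for Mmp9, 2743 for Ltf, 2714 for Cd177 and 2425 for Mmp8. The lengths were 1539 bases for Chil3, 1374 for Lcn2, 1345 for Hp, 1222 for Ngp and 758 for Camp. The median length over these genes was 3103 bases. Values after median-of-ratios scaling and after removal of each library's trend with GC content and length are therefore given beside many of the members' results.

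The granule genes spanned a wide range of levels in bone marrow. TPM is a value per length of transcript, so levels can be compared between genes. Ngp, at a mean of 3123.5 TPM over the 24 libraries, Camp at 2563.1 TPM and Lcn2 at 1424.5 TPM ranked 17, 23 and 44 among all genes of the table. Chil3 (954.8 TPM), Ltf (383.4 TPM), Hp (196.9 TPM) and Mmp8 (172.3 TPM) followed, then Mmp9 (88.1 TPM) and Cd177 (54.6 TPM). Mmp25 was far below the rest at 7.13 TPM. Together the 10 genes held 0.999% ± 0.094 (SD, n = 6) of all TPM in GC-WT mice, 1.15% ± 0.288 in FL-WT mice, 0.725% ± 0.153 in GC-KO mice and 0.714% ± 0.0788 in FL-KO mice (SD, n = 6 each).

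**Figure D1:**
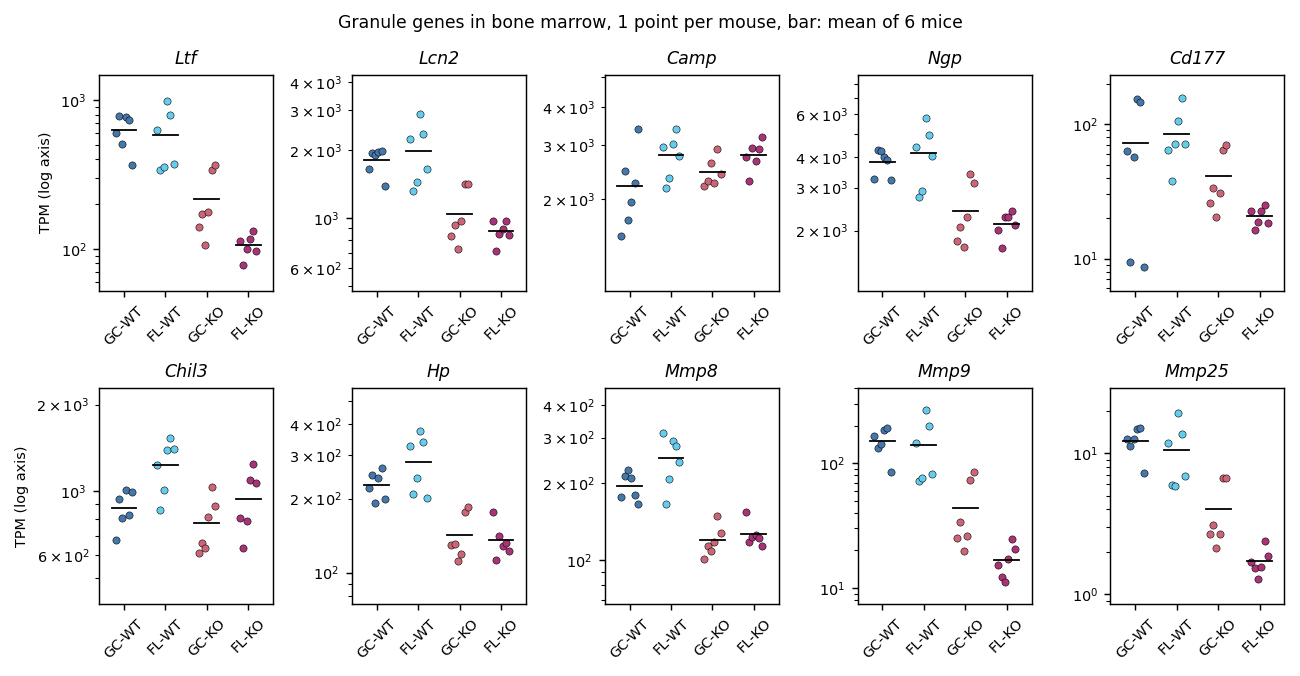
TPM of each granule gene on a log axis, with 1 point per mouse, 6 mice per group and the group mean as a bar. Ltf, Mmp9 and Mmp25 were lowest in FL-KO mice, the 4 groups overlapped for Camp, and 2 GC-WT mice had Cd177 below 10 TPM.

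Ltf encodes lactoferrin, the iron-binding protein that defines secondary granules. It ranged from 367.3 to 786.2 TPM (median 672.2) in GC-WT mice and from 340.4 to 995.4 TPM (median 503.4) in FL-WT mice. In GC-KO mice it ranged from 106.8 to 369.1 TPM (median 174.8) and in FL-KO mice from 78.5 to 131.2 TPM (median 106.6). All FL-KO mice lay below all FL-WT mice, whereas the highest GC-KO mouse just passed the lowest GC-WT mouse. Ltf fell 2.89-fold in GC-KO vs. GC-WT by its group means (log2 fold change -1.62 ± 0.28 SE, adjusted p = 4.11e-04) and 5.49-fold for FL-KO vs. FL-WT (-2.33 ± 0.28, adjusted p = 9.88e-07). After median-of-ratios scaling Ltf had -1.26 and -1.89 in these comparisons, and -1.23 and -1.83 with the trend in GC content and length removed. Between FL-KO and GC-KO mice it fell by 0.90 on the log2 scale (SE 0.28, adjusted p = 0.0135), and with median-of-ratios scaling this difference was -0.47 (adjusted p = 0.107). In FL-WT vs. GC-WT it did not pass the test (-0.19 ± 0.28, adjusted p = 0.604).

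Lcn2 encodes lipocalin 2 (NGAL), which withholds siderophores and binds gelatinase in human granules. It was tightly grouped in GC-WT mice, from 1383.6 to 1972.4 TPM (median 1918.8), and wider in FL-WT mice, from 1316.4 to 2879.0 TPM (median 1950.3). GC-KO mice had 725.8 to 1410.6 TPM (median 948.7) and FL-KO mice 713.2 to 968.2 TPM (median 870.1). Only the flight groups were free of overlap. Lcn2 fell in GC-KO vs. GC-WT (log2 fold change -0.82 ± 0.18, adjusted p = 9.64e-04) and, after flight, for FL-KO vs. FL-WT (-1.13 ± 0.18, adjusted p = 1.19e-05). It passed the 2-fold limit only in flight, and not after median-of-ratios scaling (-0.69 ± 0.11, adjusted p = 1.29e-05). On the ground Lcn2 had -0.46 after this scaling. With the trend in GC content and length removed it had -0.58 on the ground and -0.74 in flight.

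Camp, the gene of the mouse cathelicidin CRAMP, an antimicrobial peptide of secondary granules, took a different course. It ranged from 1517.1 to 3385.9 TPM (median 2106.5) in GC-WT, from 2185.3 to 3392.3 TPM (median 2865.1) in FL-WT mice, from 2217.9 to 2926.1 TPM (median 2355.8) in GC-KO mice and from 2293.0 to 3193.4 TPM (median 2832.5) in FL-KO mice. All 4 groups overlapped. The log2 fold change was 0.19 ± 0.15 in GC-KO vs. GC-WT (adjusted p = 0.319, or 0.0517 without GC-WT mouse 10) and 0.016 ± 0.15 for FL-KO vs. FL-WT (adjusted p = 0.947). Relative to the typical gene Camp was higher in Nrf2-KO mice, with 0.55 ± 0.14 (adjusted p = 0.00319) and 0.46 ± 0.14 (adjusted p = 0.00811) after median-of-ratios scaling. With the trend in GC content and length removed it was 0.33 (adjusted p = 0.024) and 0.29 (adjusted p = 0.0319).

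Ngp encodes neutrophilic granule protein, a relative of the cathelicidins, and followed Lcn2 rather than its neighbour Camp. Its range was 3213.6 to 4279.3 TPM (median 3957.1) in GC-WT and 2751.6 to 5817.9 TPM (median 4223.8) in FL-WT mice. In Nrf2-KO mice the range was 1715.3 to 3429.4 TPM (median 2168.0) on the ground and 1702.9 to 2407.5 TPM (median 2194.6) after flight. The groups overlapped on the ground and not in flight. Ngp fell in GC-KO vs. GC-WT (log2 fold change -0.71 ± 0.17, adjusted p = 0.00262) and, after flight, for FL-KO vs. FL-WT (-0.92 ± 0.17, adjusted p = 1.23e-04), in both cases by less than 2-fold. These values were -0.35 and -0.47 after median-of-ratios scaling, and -0.64 and -0.79 with the trend in GC content and length removed.

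Hp encodes haptoglobin, the haemoglobin-binding protein that maturing neutrophils store in secondary granules. GC-WT mice had 191.1 to 265.3 TPM (median 231.1) and FL-WT mice 201.5 to 375.7 TPM (median 285.3). GC-KO mice had 111.8 to 184.7 TPM (median 130.2) and FL-KO mice 112.7 to 176.4 TPM (median 129.7). Every Nrf2-KO mouse was below every WT mouse under both conditions. Hp fell in GC-KO vs. GC-WT (log2 fold change -0.69 ± 0.16, adjusted p = 0.00138) and, after flight, for FL-KO vs. FL-WT (-1.03 ± 0.16, adjusted p = 9.73e-06). The second change was a DEG as deposited and stood at -0.59 (adjusted p = 0.00116) after median-of-ratios scaling, and the first at -0.34 (adjusted p = 0.0499). With the trend in GC content and length removed Hp had -0.42 on the ground and -0.57 in flight.

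Cd177 encodes a surface protein on a GPI anchor that is also stored in secondary granules and binds Pecam1. GC-WT mice split widely, with 8.66 and 9.51 TPM in mice 10 and 05, 56.6 and 63.5 TPM in mice 06 and 03, and 146.1 and 153.3 TPM in mice 08 and 07. The same mice 10 and 05 had Ltf at 367.3 and 786.2 TPM, so the low Cd177 did not come with low Ltf in both. FL-WT mice had 38.1 to 155.8 TPM (median 70.6), GC-KO mice 20.5 to 69.9 TPM (median 32.2) and FL-KO mice 16.2 to 25.1 TPM (median 20.7). Cd177 was a DEG in FL-KO vs. FL-WT (log2 fold change -1.85 ± 0.51, adjusted p = 0.00412), with no overlap between the groups. There it had -1.42 (adjusted p = 0.0167) after median-of-ratios scaling and -1.14 (adjusted p = 0.0562) with the trend in GC content and length removed. In GC-KO vs. GC-WT the difference was -0.26 ± 0.51 (adjusted p = 0.73), it lay between -0.70 and 0.10 with 1 mouse left out, and the 2 lowest GC-WT mice were below all GC-KO mice.

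Chil3 encodes Ym1, a chitinase-like lectin of mouse neutrophils and some macrophages. It ranged from 674.2 to 1011.2 TPM (median 880.3) in GC-WT and from 857.6 to 1523.9 TPM (median 1306.9) in FL-WT mice, and from 607.9 to 1037.3 TPM (median 735.9) in GC-KO mice and 635.3 to 1240.3 TPM (median 934.3) in FL-KO mice. The groups overlapped throughout. Chil3 rose in FL-WT vs. GC-WT (log2 fold change 0.48 ± 0.17, adjusted p = 0.0341). It did not pass the test in GC-KO vs. GC-WT (-0.19 ± 0.17, adjusted p = 0.386), but did with the trend in GC content and length removed (-0.26, adjusted p = 0.0555). In FL-KO vs. FL-WT it fell (-0.41 ± 0.17, adjusted p = 0.0512), but the value was 0.037 (adjusted p = 0.75) after median-of-ratios scaling, and the test was not passed when any 1 of 6 mice was left out (FL-WT 07, 08 or 10, or FL-KO 01, 02 or 04; adjusted p up to 0.163) or without the filter on low values (adjusted p = 0.128). With the trend in GC content and length removed Chil3 had -0.46 there (adjusted p = 0.0011).

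The 3 matrix metalloproteinases belong to different compartments. Mmp8, neutrophil collagenase, is stored mainly in secondary granules. It ranged from 165.1 to 225.1 TPM (median 194.2) in GC-WT and from 165.7 to 312.2 TPM (median 259.5) in FL-WT mice, against 101.5 to 149.1 TPM (median 116.0) in GC-KO mice and 114.2 to 154.3 TPM (median 122.4) in FL-KO mice. No Nrf2-KO mouse reached the level of a WT mouse. Mmp8 fell by 0.70 on the log2 scale in GC-KO vs. GC-WT (SE 0.13, adjusted p = 5.07e-04) and by 0.95 in FL-KO vs. FL-WT (SE 0.13, adjusted p = 4.03e-06). After median-of-ratios scaling Mmp8 had -0.34 and -0.51 in these comparisons, and -0.64 and -0.86 with the trend in GC content and length removed.

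Mmp9, gelatinase B, the enzyme that defines tertiary granules, showed the largest fold change of the 10 in both genotype comparisons. GC-WT mice had 84.8 to 193.5 TPM (median 154.2) and FL-WT mice 72.7 to 269.0 TPM (median 113.8). GC-KO mice had 19.9 to 84.7 TPM (median 29.9) and FL-KO mice 11.2 to 24.5 TPM (median 16.2). Neither condition had an Nrf2-KO mouse at or above a WT mouse, although the highest GC-KO value was within 0.1 TPM of the lowest GC-WT value. The group mean was 3.43-fold lower with the knockout on the ground (log2 fold change -1.92 ± 0.33, adjusted p = 4.11e-04) and 8.36-fold lower with it in flight (-2.85 ± 0.33, adjusted p = 8.54e-07). These changes were -1.57 and -2.43 after median-of-ratios scaling, and -1.36 and -2.08 with the trend in GC content and length removed. Mmp9 also passed the DEG rule for FL-KO vs. GC-KO (-1.17 ± 0.33, adjusted p = 0.00821). That difference was -0.75 (adjusted p = 0.0371) with median-of-ratios scaling, and leaving out GC-KO mouse 11 or 12 took it under the 2-fold limit.

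Mmp25 encodes leukolysin (MT6-MMP), a membrane-anchored protease of neutrophils. Despite its low level it gave clear differences, with 7.24 to 14.9 TPM (median 12.6) in GC-WT, 5.82 to 19.4 TPM (median 9.32) in FL-WT mice, 2.14 to 6.69 TPM (median 2.88) in GC-KO mice and 1.28 to 2.4 TPM (median 1.64) in FL-KO mice. GC-KO mice were all below GC-WT mice, and FL-KO mice all below FL-WT mice. It was a DEG in GC-KO vs. GC-WT (-1.47 ± 0.25, adjusted p = 3.95e-04, or -0.89 and under 2-fold with the trend in GC content and length removed) and, after flight, for FL-KO vs. FL-WT (-1.97 ± 0.25, adjusted p = 1.36e-06, or -1.23 with that trend removed). After median-of-ratios scaling Mmp25 had -1.15 and -1.67. It also fell for FL-KO vs. GC-KO (-0.78 ± 0.25, adjusted p = 0.0153), but not with the trend in GC content and length removed (-0.25, adjusted p = 0.204).

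Counted together in GC-KO vs. GC-WT, which asks what loss of Nrf2 does on the ground, 7 of the 10 genes fell and none rose. Over all genes 42.9% were lower by the same rule. Of the 7, Ltf, Mmp9 and Mmp25 were DEGs, against 3.04% of all genes that were lower DEGs. The groups did not overlap for Hp, Mmp8, Mmp9 and Mmp25, as for 9.15% of all genes in this direction. Groups without overlap always have the smallest p that the exact two-sided permutation test allows (0.00216). For these 4 genes that p therefore adds nothing to the lack of overlap. The median log2 fold change was -0.70 for the 10 genes and -0.22 for all genes, or -0.35 and 0.03 after median-of-ratios scaling. After median-of-ratios scaling the same 7 genes were lower, Camp was higher, and 27.9% of all genes were lower. The 7 passed the test under each alternative and with each mouse left out.

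The same comparison in flight, FL-KO vs. FL-WT, gave 9 genes that fell and none that rose, against 47.2% of all genes that were lower. The DEGs were Ltf, Lcn2, Cd177, Hp, Mmp9 and Mmp25, 6 of the 10, against 8.36% of all genes. The groups did not overlap for 8 of the 10, all but Camp and Chil3, and for 20.6% of all genes. The lack of overlap again fixes the exact two-sided permutation p of each of the 8 at 0.00216. The median log2 fold change was -1.08 for the 10 genes and -0.25 for all genes, or -0.64 and 0.044 after median-of-ratios scaling. After median-of-ratios scaling 8 were lower, Camp was higher, 31.2% of all genes were lower, and the DEGs were Ltf, Cd177, Mmp9 and Mmp25. The 2 genotype comparisons share no mouse. Whether the effect of genotype differed between ground and flight was tested for each gene as the interaction with flight, and no member passed. The interaction was most negative for Cd177 (-1.60 ± 0.72), Mmp9 (-0.93 ± 0.47) and Ltf (-0.71 ± 0.40), each with an adjusted p of 1 in limma. Their unadjusted p-values from limma were 0.0355, 0.0579 and 0.0831.

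**Figure D2:**
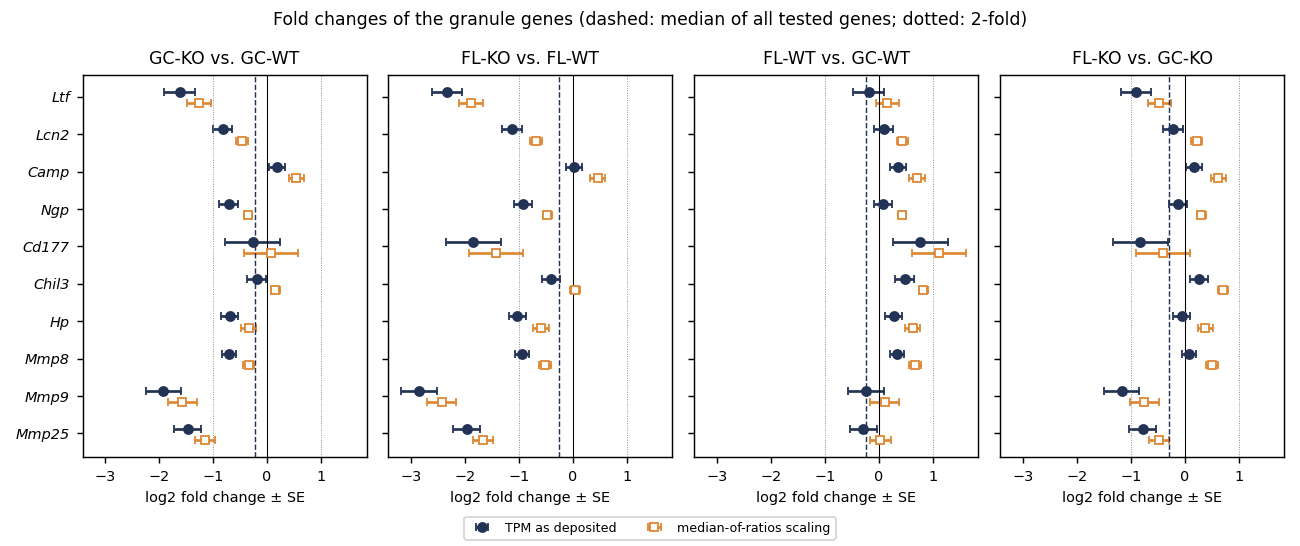
Log2 fold change with its SE for the 10 granule genes in the 4 comparisons (n = 6 mice per group), from TPM as deposited (filled) and after median-of-ratios scaling (open). The dashed line is the median of all tested genes as deposited and dotted lines mark 2-fold. Ltf, Mmp9 and Mmp25 lie furthest to the left in both genotype comparisons, and Camp lies at or right of 0.

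In WT mice none of the 10 genes passed the test as lower after flight. In FL-WT vs. GC-WT, 3 genes rose, Chil3 (0.48 ± 0.17), Camp (0.36 ± 0.15, adjusted p = 0.0662) and Mmp8 (0.33 ± 0.13, adjusted p = 0.0629), against 0.994% of all genes that were higher and 39.0% that were lower. None of the 10 was a DEG, as 0.938% of all genes were in the lower direction. The rise of Camp was not significant when GC-WT mouse 03, 06 or 07 or FL-WT mouse 03 or 08 was left out (adjusted p up to 0.165), nor that of Mmp8 without GC-WT mouse 08 or 10 or FL-WT mouse 03 or 08 (adjusted p up to 0.154). With only these 2 groups in the fit neither passed (adjusted p = 0.168 for Camp and 0.143 for Mmp8), and Camp did not pass without the filter on low values (adjusted p = 0.115). Chil3 passed with each mouse left out. Cd177 passed without GC-WT mouse 07 (adjusted p = 0.099), Hp without FL-WT mouse 10 (adjusted p = 0.081) and Mmp25 without FL-WT mouse 07 (adjusted p = 0.0931). After median-of-ratios scaling 6 genes were higher, namely Lcn2 (0.44), Camp (0.71), Ngp (0.43), Chil3 (0.83), Hp (0.63) and Mmp8 (0.68), and 17.4% of all genes were. Hp was also higher with the trend in GC content and length removed (0.44, adjusted p = 0.00925). Ltf, Mmp9 and Mmp25 had values of -0.19 ± 0.28, -0.24 ± 0.33 and -0.29 ± 0.25 as deposited and 0.16 ± 0.22, 0.11 ± 0.27 and 0.028 ± 0.19 after this scaling, none past the test.

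In Nrf2-KO mice the 10 genes parted. Ltf, Mmp9 and Mmp25 fell in FL-KO vs. GC-KO, as did 53.1% of all genes, and Mmp9 alone was a DEG, as were 2.13% of all genes in this direction. The other 7 did not pass the test, with log2 fold changes between -0.82 (Cd177) and 0.27 (Chil3), although Chil3 passed without FL-KO mouse 02 (adjusted p = 0.0886). Cd177 passed when these 2 groups were fitted alone, without the widely spread GC-WT mice (-0.82 ± 0.26, adjusted p = 0.0187), and its exact two-sided permutation p was 0.013. After median-of-ratios scaling 5 genes were higher, Camp (0.62), Ngp (0.31), Chil3 (0.71), Hp (0.38) and Mmp8 (0.51), against 18.1% of all genes, while Mmp9 (-0.75) and Mmp25 (-0.48) were lower. With the trend in GC content and length removed Camp (0.44, adjusted p = 0.0055), Chil3 (0.39, adjusted p = 0.00921), Mmp8 (0.30, adjusted p = 0.0446) and Hp (0.29, adjusted p = 0.0672) were higher. Ltf (-0.51, adjusted p = 0.0735) and Mmp9 (-0.63, adjusted p = 0.0537) were lower with that trend removed. Of all 12373 genes, 2904 were then higher and 1783 lower. The median was 0.069 for the 10 genes and 0.052 for all genes. Among the genes higher after either adjustment, Ngp and Hp had a negative value as deposited (-0.13 and -0.056). The comparisons of flight with ground and of genotype share groups of mice, so they are not independent of one another.

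The order of the 4 groups by mean TPM differed between members. For Ltf, Mmp9 and Mmp25 it was GC-WT, FL-WT, GC-KO, FL-KO, in which the first pair did not differ by the test and each later step did. For Lcn2, Ngp and Hp it was FL-WT, GC-WT, GC-KO, FL-KO, and only the step from GC-WT to GC-KO passed the test. Mmp8 had FL-WT above GC-WT (adjusted p = 0.0629), GC-WT above FL-KO (adjusted p = 1.95e-04) and FL-KO next to GC-KO (adjusted p = 0.627). For Cd177 the order was FL-WT, GC-WT, GC-KO, FL-KO with no step past the test (adjusted p from 0.184 to 0.73), although its ends differed. Chil3 had FL-WT above FL-KO, while FL-KO, GC-WT and GC-KO did not differ step by step. Camp had FL-KO, FL-WT, GC-KO and GC-WT in that order, with no step past the test (adjusted p from 0.319 to 0.947).

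Within the libraries the mixture of granule transcripts differed between groups. Shares of TPM do not change with scaling between libraries. Differences of log2(TPM + 1) are not fully free of it for genes at a few TPM such as Mmp25. A trend with GC content or length in a library can move both, and they were not computed with that trend removed. Camp made up 22.1% ± 6.37 of the summed TPM of the 10 genes in GC-WT mice, 24.7% ± 2.7 in FL-WT mice, 34.7% ± 5.49 in GC-KO mice and 39.2% ± 2.27 in FL-KO mice (SD, n = 6 each). Ltf made up 6.28% ± 1.48, 4.86% ± 1.15, 2.87% ± 0.886 and 1.48% ± 0.156 in the same order. Mmp9 made up 1.52% ± 0.427, 1.15% ± 0.387, 0.568% ± 0.252 and 0.233% ± 0.0529. The share of Camp thus lay between 36.4% and 42.1% in FL-KO mice and between 20% and 27.5% in FL-WT mice, without overlap, whereas in GC-WT mice it reached 34.5%. The mean log2(TPM + 1) of Mmp8, Mmp9 and Mmp25 minus that of Ltf, Lcn2, Camp and Ngp was -4.59 ± 0.255 in GC-WT, -4.74 ± 0.158 in FL-WT mice, -5.21 ± 0.154 in GC-KO mice and -5.57 ± 0.154 in FL-KO mice (SD, n = 6 each). The ranges were -5.85 to -5.44 in FL-KO and -5.41 to -5.01 in GC-KO mice against -4.97 to -4.34 in GC-WT mice. Taken singly, Mmp9 minus the mean of the same 4 genes went from -3.55 ± 0.40 in GC-WT to -4.74 ± 0.48 in GC-KO and from -3.88 ± 0.38 in FL-WT to -5.64 ± 0.33 in FL-KO mice. Mmp25 went from -7.06 ± 0.31 to -7.79 ± 0.20 and from -7.43 ± 0.25 to -8.31 ± 0.19. Mmp8 was not lower against these genes, with -3.15 ± 0.18 and -3.11 ± 0.23 on the ground and -2.90 ± 0.20 and -2.76 ± 0.20 after flight, so the lower mean came from Mmp9 and Mmp25 (SD, n = 6 each).

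Ratios of pairs of members, which were chosen after their values were seen and are given without a test, show the same by mouse. The ratio of Ltf to Camp TPM ranged from 0.108 to 0.4 (median 0.323) in GC-WT, from 0.135 to 0.328 (median 0.185) in FL-WT mice, from 0.0406 to 0.153 (median 0.0766) in GC-KO mice and from 0.0301 to 0.0448 (median 0.0378) in FL-KO mice. The ratio of Mmp9 to Mmp8 had medians of 0.767, 0.453, 0.273 and 0.12 in the same order. By contrast the ratio of Lcn2 to Ngp moved little, with medians of 0.472, 0.487, 0.438 and 0.4, and lay between 0.373 and 0.512 over all mice.

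**Figure D3:**
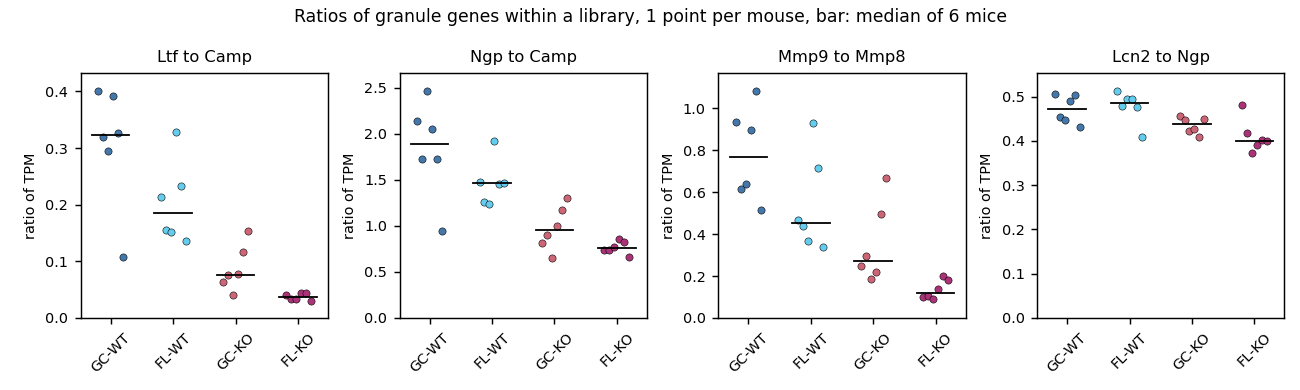
Ratios of TPM of 2 granule genes within a library, with 1 point per mouse, 6 mice per group and the median as a bar, on axes that start at 0. Ltf to Camp, Ngp to Camp and Mmp9 to Mmp8 were lowest in FL-KO mice, and Lcn2 to Ngp lay between 0.373 and 0.512 in all 24 mice.

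Mice of a group also differed in several members at once. In FL-WT mice Ltf was 340.4 to 372.6 TPM in mice 05, 06 and 10 and 634.3 to 995.4 TPM in mice 03, 07 and 08, and the same 3 mice were the lowest for Lcn2, Mmp9 and Mmp25. In GC-KO mice, numbers 11 and 12 had the highest values of Ltf, Lcn2, Ngp, Cd177, Chil3, Hp, Mmp8, Mmp9 and Mmp25. Once group means were subtracted, the correlation of log2(TPM + 1) between 2 members over the 24 libraries was above 0 for 44 of 45 pairs (median Pearson's r 0.65, from -0.26 for Camp and Cd177 to 0.98 for Mmp9 and Mmp25). Ltf had r = 0.93 with both Mmp9 and Mmp25, and Lcn2 had r = 0.95 with Ngp. Camp had r = 0.63 with Chil3 and at most 0.39 with any other member. All values of a mouse come from 1 library and share its depth and base composition, and the part of these in the correlations was not tested.

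**Figure D4:**
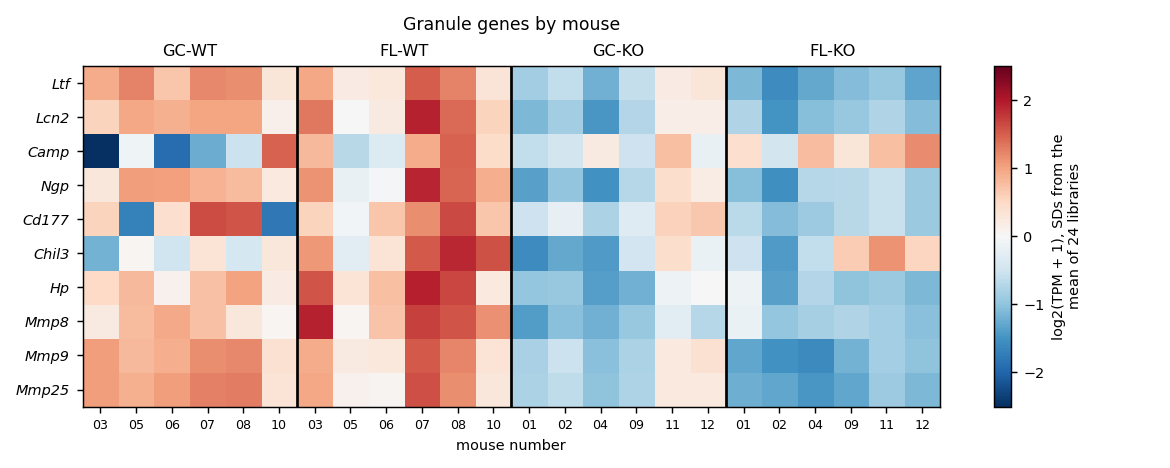
Log2(TPM + 1) of each granule gene in each of the 24 mice, in SDs from the gene's mean over all libraries (red above, blue below). The FL-WT mice 03, 07 and 08 and the GC-KO mice 11 and 12 are high within their groups for most genes, and the rows of Camp and, in GC-WT mice, Cd177 depart from the rest.

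The genes whose levels most resembled the mean standardised profile of the 10 over the 24 libraries, among 5015 other genes averaging 5 TPM or more, were Pglyrp1 (Pearson's r 0.985), Cnn2 (0.984), Chil1 (0.979), Twf2 (0.977), Cebpe (0.975), Lpcat2 (0.974), Mocos (0.973), Gapdh (0.973), Cotl1 (0.971) and Ethe1 (0.971). Pglyrp1 encodes a peptidoglycan-binding protein of granules, Chil1 another chitinase-like protein, Cnn2, Twf2 and Cotl1 encode actin-binding proteins, and Gapdh a glycolytic enzyme. After median-of-ratios scaling 6 of these 10 were again among the 10 most alike, Cnn2, Gapdh, Pglyrp1, Twf2, Lpcat2 and Ethe1. Of the members themselves, Camp had the lowest likeness to the profile (r = 0.116), although it was part of it.

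Most transcription factors of the granulocyte lineage were lower in Nrf2-KO mice as deposited, and fewer were with the trend in GC content and length removed. In GC-KO vs. GC-WT, 5 of 7 fell (Cebpe, Cebpa, Spi1, Gfi1 and Runx1) and, after flight, in FL-KO vs. FL-WT all 7 did, of which Cebpe, Cebpa, Cebpb and Spi1 were DEGs. Over all genes 42.9% and 47.2% were lower, and 8.36% were lower DEGs in flight. After median-of-ratios scaling 5 factors were lower on the ground and 6 in flight, against 27.9% and 31.2% of all genes. With the trend removed 3 factors (Cebpe, Spi1 and Runx1) and 4 (these and Cebpa) were lower, against 2664 and 2782 of the 12373 genes. Cebpe ranged from 43.4 to 56.5 TPM (median 51.3) in GC-WT, from 37.9 to 85.5 TPM (median 55.6) in FL-WT mice, from 27.4 to 43.6 TPM (median 28.3) in GC-KO mice and from 20.8 to 33.9 TPM (median 28.8) in FL-KO mice. FL-KO mice were all below FL-WT mice. Its log2 fold change was -0.62 ± 0.17 in GC-KO vs. GC-WT (adjusted p = 0.00508) and -1.01 ± 0.17 for FL-KO vs. FL-WT (adjusted p = 2.83e-05), and -0.27 (adjusted p = 0.0146) and -0.58 (adjusted p = 1.46e-05) after median-of-ratios scaling. With flight in WT mice it had 0.19 ± 0.17 as deposited (adjusted p = 0.399) and 0.53 ± 0.09 after this scaling (adjusted p = 2.50e-04).

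Spi1, the gene of PU.1, fell in GC-KO vs. GC-WT (-0.88 ± 0.19, adjusted p = 0.00116) and, after flight, for FL-KO vs. FL-WT (-1.30 ± 0.19, adjusted p = 8.20e-06). Cebpa, which acts early in granulocyte commitment, fell in the same comparisons (-0.67 ± 0.14, adjusted p = 9.15e-04, and -1.20 ± 0.14, adjusted p = 9.88e-07), although the first was -0.066 (adjusted p = 0.419) with the trend in GC content and length removed. Gfi1, a repressor needed for neutrophil differentiation, had -0.66 ± 0.15 (adjusted p = 0.00117) on the ground and -0.83 ± 0.15 (adjusted p = 5.53e-05) in flight, and -0.084 and -0.0014 with that trend removed (adjusted p = 0.372 and 0.99). Runx1 had -0.73 ± 0.18 (adjusted p = 0.0027) and -0.84 ± 0.18 (adjusted p = 4.83e-04). After median-of-ratios scaling none of the 7 was lower by 2-fold, and Cebpd was higher on the ground (0.22, adjusted p = 0.0633, and 0.38, adjusted p = 0.00663, with the trend removed). As deposited, Cebpb and Cebpd did not pass on the ground (-0.53 ± 0.27 and -0.12 ± 0.14) and fell in flight (-1.25 ± 0.27, adjusted p = 3.98e-04, and -0.57 ± 0.14, adjusted p = 0.00144). In flight Cebpd had -0.14 (adjusted p = 0.194) after median-of-ratios scaling and 0.054 (adjusted p = 0.687) with the trend removed, and Cebpb had -0.48 (adjusted p = 0.15) with the trend removed. In FL-WT vs. GC-WT, Cebpd rose (0.32 ± 0.14, adjusted p = 0.0753) and Runx1 fell (-0.54 ± 0.18, adjusted p = 0.0299). Runx1 then had -0.22 (adjusted p = 0.0928) after median-of-ratios scaling and -0.17 (adjusted p = 0.151) with the trend removed. After these 2 adjustments 4 and 5 of the 7 factors were higher in FL-WT vs. GC-WT. Over all genes 17.4% were higher after the first, and 2230 of 12373 after the second.

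A list of 20 other granule genes, mostly of secondary, tertiary and secretory compartments, had similar counts to the 10. Of 18 tested, 11 fell and 1 rose in GC-KO vs. GC-WT, with 5 DEGs and a median of -0.69, and 13 fell in FL-KO vs. FL-WT, with 9 DEGs and a median of -1.0. Over all genes 42.9% and 47.2% were lower, and 3.04% and 8.36% were lower DEGs. The integrin subunits stored in granule membranes were among the leading DEGs. Itgb2 was at 32.1 ± 13.5 TPM in GC-KO mice and 80.9 ± 18.5 TPM in GC-WT mice (-1.37 ± 0.24, adjusted p = 4.11e-04), and at 19.1 ± 2.86 TPM in FL-KO and 74.6 ± 33.7 TPM in FL-WT mice (-1.81 ± 0.24, adjusted p = 2.38e-06; SD, n = 6 each). Itgam changed by -1.33 and -1.76 and Itgb2l by -1.14 and -1.5 in the same comparisons. Ceacam1 was the next largest on the ground (-1.25) and Adam8 in flight (-1.39). After median-of-ratios scaling Itgb2 had -1.02 on the ground and -1.38 in flight, Itgam -0.98 and -1.33, and Itgb2l -0.79 and -1.09. Ceacam1 then had -0.90 on the ground and Adam8 -0.99 in flight.

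Among 9 tested genes of primary granules, which are filled earlier, 4 fell in GC-KO vs. GC-WT and 5 for FL-KO vs. FL-WT (against 42.9% and 47.2% of all genes). Their medians were -0.32 and -0.37 (0.033 and 0.075 after median-of-ratios scaling), near those of all genes. Mpo, the gene of myeloperoxidase, was an exception. It was at 259.2 ± 79.6 TPM in GC-WT, 200.5 ± 91.6 TPM in FL-WT mice, 85.2 ± 53.7 TPM in GC-KO mice and 35.5 ± 8.63 TPM in FL-KO mice (each ± SD of n = 6), with changes of -1.72 ± 0.31 (adjusted p = 4.16e-04) and -2.39 ± 0.31 (adjusted p = 1.85e-06) with genotype. It was also a DEG for FL-KO vs. GC-KO (-1.06 ± 0.31, adjusted p = 0.00981). After median-of-ratios scaling Mpo had -1.37 and -1.95 with genotype, and -0.63 in FL-KO vs. GC-KO. Elane, neutrophil elastase, was a DEG for FL-KO vs. FL-WT (-1.04 ± 0.22, adjusted p = 3.51e-04), and had -0.60 after median-of-ratios scaling.

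Of 14 tested genes of mature neutrophils, 3 fell and 3 rose in GC-KO vs. GC-WT (median -0.15), 9 fell in FL-KO vs. FL-WT (median -0.34), and 7 rose and none fell in FL-WT vs. GC-WT (median 0.29). Over all genes 42.9% and 47.2% were lower in the genotype comparisons, and 0.994% were higher in FL-WT vs. GC-WT. After median-of-ratios scaling the medians of these 14 genes in the 2 genotype comparisons were 0.20 and 0.10, on the other side of 0. The only DEG among them was Csf3r, the receptor of G-CSF, at 26.1 ± 11.5 TPM in GC-KO mice and 56.1 ± 8.85 TPM in GC-WT mice (-1.16 ± 0.23, adjusted p = 5.75e-04) and at 12.8 ± 3.18 TPM in FL-KO and 44 ± 16.9 TPM in FL-WT mice (-1.66 ± 0.23, adjusted p = 3.22e-06; SD, n = 6 each). After median-of-ratios scaling Csf3r had -0.81 on the ground and -1.24 in flight. The summed TPM of the 15 genes of this list ranged from 24531.6 to 49100.7 in GC-WT and from 37519.1 to 57695.8 in GC-KO mice, which overlap. Most of this sum came from S100a8 and S100a9. Their log2 fold changes in GC-KO vs. GC-WT were 0.48 and 0.45, unlike the list median of -0.15. In bulk RNA of whole marrow, fewer cells of a type and less RNA per cell cannot be told apart.

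**Figure D5:**
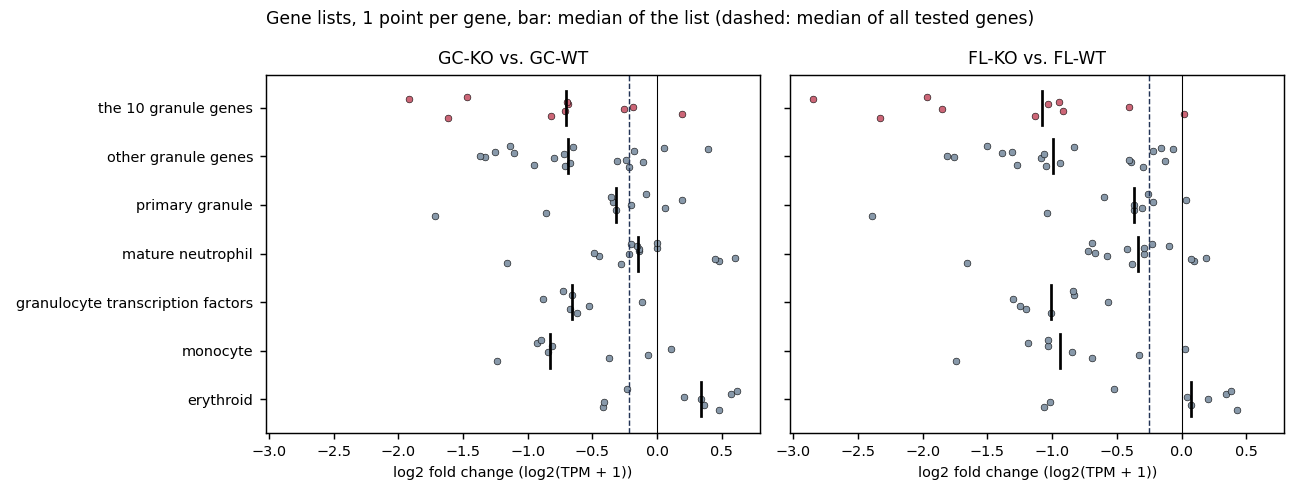
Log2 fold change of each tested gene of 7 lists in GC-KO vs. GC-WT and, after flight, in FL-KO vs. FL-WT, with 1 point per gene, the median of each list as a bar and the median of all tested genes as a dashed line. The medians of the 10 granule genes (-0.70 and -1.08) and of the other granule genes (-0.69 and -1.0) lie left of those of primary granule genes (-0.32 and -0.37) and of mature neutrophil genes (-0.15 and -0.34). Those of granulocyte transcription factors (-0.66 and -1.01) and of monocyte genes (-0.82 and -0.94) lie near those of the granule genes. The medians of erythroid genes were 0.34 and 0.072.

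A list of genes taken as partners, inhibitors and receptors of the granule proteins had medians of at most 8.4 TPM (Sort1) over the 24 libraries. Of 8 such genes, Timp1, an inhibitor of metalloproteinases, Slc22a17, a receptor proposed for lipocalin 2, and Hpx, haemopexin, stayed under the filter of 1 TPM in every library. Timp2, Cd163 (the receptor of haptoglobin-haemoglobin complexes), Pecam1, Lrp1 and Sort1 were tested. Of these 5, 4 fell in GC-KO vs. GC-WT and 4 for FL-KO vs. FL-WT, against 42.9% and 47.2% of all genes. Sort1, a sorting receptor, was the only DEG. It was at 5.75 ± 2.36 TPM in GC-KO mice and 14.3 ± 3.49 TPM in GC-WT mice (-1.21 ± 0.21, adjusted p = 4.11e-04). After flight it was at 3.19 ± 0.505 TPM in FL-KO and 12.8 ± 4.89 TPM in FL-WT mice (-1.65 ± 0.21, adjusted p = 1.74e-06). These TPM values are ± SD, with n = 6 each. After median-of-ratios scaling Sort1 had -0.88 on the ground and -1.30 in flight.

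Markers of other marrow cells moved with the groups too. Over all genes 42.9% were lower and 3.13% higher in GC-KO vs. GC-WT, and 47.2% lower and 1.91% higher in FL-KO vs. FL-WT. Lower DEGs were 3.04% and 8.36% of all genes in these 2 comparisons. Of 8 monocyte genes, 6 fell in each genotype comparison, with medians of -0.82 and -0.94, and their summed TPM ranged from 449.5 to 609.0 in GC-WT, 401.4 to 737.3 in FL-WT mice, 325.0 to 554.8 in GC-KO mice and 299.3 to 431.3 in FL-KO mice. The leading monocyte DEG was Csf1r (-1.24 and -1.74, or -0.91 and -1.40 after median-of-ratios scaling). Of 9 erythroid genes, 2 fell and 3 rose in GC-KO vs. GC-WT and 3 fell and 2 rose in FL-KO vs. FL-WT, and summed TPM, mostly from globin genes, ranged from 57028.4 to 137347.0 in GC-WT and from 111180.2 to 169605.8 in GC-KO mice. With flight, 5 of the 9 erythroid genes fell in WT mice and 6 in Nrf2-KO mice, led by Slc4a1 (-1.15 and -1.78). After median-of-ratios scaling Slc4a1 had -0.80 and -1.35. Over all genes 39.0% and 53.1% were lower with flight. Eosinophil, basophil and mast cell genes fell in 2 of 8 cases with genotype on the ground and in 6 of 8 in flight. In flight Prss34, Epx and Ear2 were DEGs, and Prss34 was one on the ground too. After median-of-ratios scaling these genes had -0.98, -0.79 and -0.59 in flight, and Prss34 had -0.72 on the ground. The summed TPM of this list ranged from 1179.3 to 1535.7 in FL-WT and from 320.2 to 1010.3 in FL-KO mice. Macrophage genes fell in 2 and 6 of 9 cases, B lineage genes in 4 and 4 of 8, T and NK genes in 2 and 4 of 7, and osteoclast genes in 1 and 2 of 3 tested, with 4 of the 7 osteoclast genes under the filter. In this order their medians were -0.13 and -0.47, -0.50 and -0.35, -0.24 and -0.26, and -0.27 and -0.33. Those of all genes were -0.22 and -0.25. After median-of-ratios scaling the medians of the macrophage, B lineage, T and NK and osteoclast lists lay between -0.17 and 0.16. Those of the monocyte list were then -0.48 on the ground and -0.52 in flight, and those of the erythroid list 0.69 and 0.52. The list of eosinophil, basophil and mast cell genes had 0.045 and -0.39. The part of these other cells in the changes of the granule genes was not tested.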

How the data were processed

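RNA of cryopreserved bone marrow cells was sequenced from 24 mice, 6 in each of 4 groups. The authors lysed the frozen cells in ISOGEN-LS, built MGIEasy RNA Directional libraries from 200 ng of RNA, sequenced them on a DNBSEQ-G400, mapped reads to mm10 with STAR 2.6.1 and deposited TPM values from RSEM 1.3.1. The annotation release and the strand setting are not given in the sources used here. TPM values keep no read counts, so depth is unknown and no counting interval can be given. TPM also moves with every other gene of a library, small RNAs included.

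The members and lists were chosen with earlier results of these data known. Groups came from the sample titles. Genes above 1 TPM in at least 1 library (12373) were analysed as log2(TPM + 1) in limma 3.58.1 (R 4.3.3), with a mean per group over all 24 libraries and Benjamini-Hochberg adjustment over all of them. Changes had an adjusted p under 0.1, and DEGs also a fold change of at least 2, the thresholds of the study. Members were also compared with exact two-sided permutation tests of the difference in mean log2(TPM + 1), for which 6 mice against 6 allow no p below 0.00216. The p-values from limma set a difference against the spread between mice. That spread was pooled over the 4 groups and drawn towards that of other genes. Lists are described by counts and medians, and shares and ratios without a test. Genes were named by rule: the 10 members, Nfe2l2, Chil4, the 7 transcription factors, up to 4 DEGs with the largest change from each other list, and the 10 other genes, averaging 5 TPM or more, most like the members' profile. S100a8 and S100a9 were named as well, as the largest parts of the sum of their list.

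Mouse numbers are shared by ground and flight mice but mark different animals. Deviations of same-numbered mice from their group means had correlations of -0.0265 to 0.273, so the numbers were not taken to pair the mice. The alternatives tried were no filter, a filter met in 6 libraries, a pseudocount of 0.1, median-of-ratios scaling, quantile normalisation, removal of the 5 small RNAs, removal of a trend with GC content and length in each library, a mean-expression trend, the compared groups alone, the mouse number as a block, no minimum fold change, an adjusted p under 0.05, and each library left out. Gene coordinates, lengths and GC content came from GENCODE M21 (GRCm38), promoters from RefSeq. The limma step was tested on simulated data before use. Tables were made with pandas 2.3.3 and scipy 1.17.1, and plots with matplotlib 3.10.9, under Python 3.11.15 with numpy 2.4.6.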

Additional observations from a re-analysis of the deposited data

Results flagged for a closer look

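Among the 40 combinations of a member and a group, 1 value stood apart from the other 5 mice of its group. Mmp8 was at 154.3 TPM in FL-KO mouse 01, and the next highest of the 6 FL-KO mice was at 125.8 TPM. This gap was 0.711 of the range of the group, above Dixon's 95% critical value for 6 values. Chance alone marks about 1 in 20 groups. The value lies below the lowest FL-WT mouse (165.7 TPM), so the flight groups still do not overlap. No member had an interaction of flight and genotype past the threshold.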

How the results depend on the processing

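Median-of-ratios scaling moved the median log2 fold change of the 10 genes from -0.18 to 0.26 in FL-KO vs. GC-KO and from -1.08 to -0.64 in FL-KO vs. FL-WT. The single DEG of FL-KO vs. GC-KO became 0 after quantile normalisation, after median-of-ratios scaling and with the trend in GC content and length removed, and 2 with a pseudocount of 0.1. Without a minimum fold change the calls were 7 for GC-KO vs. GC-WT, 3 for FL-WT vs. GC-WT and again 3 for FL-KO vs. GC-KO.

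Outside the left-out libraries, 27 log2 fold changes of single genes changed sign. In FL-WT vs. GC-WT these were Ltf (0.16), Mmp9 (0.11) and Mmp25 (0.028) after median-of-ratios scaling, Mmp25 (0.01) after quantile normalisation, and Ltf (0.09), Mmp9 (0.092) and Mmp25 (0.10) with the GC content and length trend removed. In FL-KO vs. GC-KO, Lcn2, Ngp and Hp became 0.22, 0.31 and 0.38 after median-of-ratios scaling, 0.028, 0.19 and 0.21 after quantile normalisation, and 0.087, 0.051 and 0.29 with the trend removed, while leaving out the small RNAs gave 0.05 for Ngp and 0.12 for Hp. In GC-KO vs. GC-WT, Cd177 (0.085) and Chil3 (0.16) turned after median-of-ratios scaling and Cd177 (0.26) with the trend removed, and in FL-KO vs. FL-WT Chil3 (0.037) turned after median-of-ratios scaling. The interaction turned for Camp (0.17), Ngp (0.10), Chil3 (0.088) and Mmp8 (0.0081) with quantile normalisation and for Camp (0.027) without the small RNAs. The cause was not tested.

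With 1 library left out, the DEGs ranged from 5 to 8 for FL-KO vs. FL-WT, 0 to 1 for FL-WT vs. GC-WT and from 0 to 2 when FL-KO was set against GC-KO. Signs changed for Lcn2 (-0.027 to 0.20) and Ngp (-0.03 to 0.19) in FL-WT vs. GC-WT, for Hp (-0.14 to 0.025) in FL-KO vs. GC-KO, Cd177 (-0.70 to 0.10) in GC-KO vs. GC-WT and Camp (-0.05 to 0.077) in FL-KO vs. FL-WT. With the mouse number as a replicate block the DEGs stayed at 0 and 1 and the medians at 0.19 and -0.18 for flight in WT and in Nrf2-KO mice, and Cd177 then passed the test in both (0.77 and -0.82, adjusted p = 0.0733 and 0.0497 in limma), as did Chil3 in the second (0.27, adjusted p = 0.0663). These mice share only a number. Depth is unknown, so counting error, which matters most for Mmp25, could not be set apart from the spread between mice.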
